A study of Mus musculus with 8 samples.

Results

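The heat shock chaperones described here are 10 genes chosen by name: the transcription factor gene Hsf1 and the chaperone genes Hspa1a, Hspa1b, Hspa8, Hsph1, Hsp90aa1, Dnajb1, Hspd1, Hspe1 and Hspb1. They were chosen from 52636 genes in the count tables, and all 10 were among the 15248 genes that had enough counts to be tested. The libraries came from the livers of 8 male wild-type C57BL/6J mice, 1 library per mouse. At 7 weeks of age, 4 mice (303, 311, 314 and 315) received AAV8-TBG-GFP (AAV8-GFP), and the other 4 (308, 309, 316 and 319) received AAV8-TBG-AGXT (AAV8-AGXT). The vector is a liver-directed adeno-associated virus, TBG is the hepatocyte-specific thyroxine binding globulin promoter that drives each transgene, and AGXT is the human gene of alanine-glyoxylate aminotransferase, the peroxisomal enzyme that removes glyoxylate before it can become oxalate. Both groups were fed the NASH diet, rich in fat, cholesterol and fructose, from 8 weeks of age for 24 weeks. Mice on a standard diet were not analysed here, so the values compare the vectors under the diet and not the diet itself. The question put to these genes was how their levels differed between the 2 vectors and among mice of 1 group.

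In resting cells HSF1 is held inactive, partly by the chaperones themselves. When unfolded proteins occupy those chaperones, HSF1 assembles into trimers and binds heat shock elements, which are inverted repeats of the unit GAA, in the promoters of chaperone genes. The HSP70 proteins, with their J-domain partners and nucleotide exchange factors, hold and refold unfolded chains, HSP90 matures its client proteins, the HSP60 and HSP10 chaperonin folds proteins inside mitochondria, and small heat shock proteins keep denatured proteins soluble. In liver, body temperature, feeding, oxidative stress and the daily rhythm all act on this system.

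The promoters are shown first because heat shock elements are the DNA that HSF1 is known to bind. RefSeq promoter windows of 300 bases (250 before and 50 after each transcription start, build GRCm38.p6) were matched for 7 of the 10 genes, in 10 windows. A pair of units was searched as GAANNTTC or TTCNNGAA, which reads the same on both strands, and a longer element was searched as 3 or 4 alternating GAA and TTC units with 2 bases between units. A pair was present in at least 1 window of 6 of the 7 genes and in 15.1% of all 32817 windows of the table. An element of 3 units was present for 3 of the 7 genes (Hspd1, Hspe1 and Hsph1) and in 0.603% of all windows. Every longer element also counts as a pair. The member figures, here and for CCAAT below, count genes with a match in any window, while the percentages count single windows. They are therefore not like for like. The stretches below have the element in capitals and are written 5′ to 3′ on the strand of the named gene.
Hspe1, chr1:55088053-55088082, plus strand: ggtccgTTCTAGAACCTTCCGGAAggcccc
Hsph1, chr5:149636351-149636380, minus strand: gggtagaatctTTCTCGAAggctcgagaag
Hsph1, chr5:149636287-149636316, minus strand: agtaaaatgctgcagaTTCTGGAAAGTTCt
Hspb1, chr5:135887791-135887820, plus strand: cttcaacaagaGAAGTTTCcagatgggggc
Hspb1, chr5:135887811-135887840, plus strand: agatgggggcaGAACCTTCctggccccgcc
Hspa1b, chr17:34959324-34959353, minus strand: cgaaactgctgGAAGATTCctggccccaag
The Hspe1 stretch has 4 units in a row, and it also lies upstream of the inner of the 2 starts that RefSeq gives for Hspd1, which is transcribed the other way. Its element begins 89 bases before the Hspe1 start and 144 bases before that Hspd1 start, while the window of the outer Hspd1 start held no pair and the element lies downstream of it. In all, 8 of the 32817 windows held 4 units. The Hspa1a window holds the same 30 bases as Hspa1b, at chr17:34972242-34972271 on the minus strand, and the windows of these sister genes differed at 4 of 300 positions. The first Hsph1 stretch lies before its start and the second, with 3 units, after it. Neither Dnajb1 window held a pair, which says only that these letters are not in those windows. The letters CCAAT, on either strand, were in a window of 5 of the 7 genes and in 37.4% of all windows. A match of letters is a description and not evidence of binding.

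Library facts were as follows. Counts on genes ran from 17095433 to 28780140 read pairs in a mouse, and the group difference in this depth gave a two-sided exact permutation p of 0.171 (n = 4 per group). Counts on genes made up 63.3% to 69.1% of the tallied pairs in AAV8-GFP mice and 56.3% to 64.8% in AAV8-AGXT mice (exact permutation p = 0.0857), where 0.0286 is the smallest p that 4 against 4 mice allow. The liver markers were present at high level, with Alb at 25931 to 43389 normalized CPM, the count of a gene scaled by library size. Mouse Agxt, the endogenous gene, had a mean level of 164 ± 15.8 CPM under AAV8-GFP against 305 ± 98.3 CPM under AAV8-AGXT (SD, n = 4 each), with a log2 fold change of 0.90 (SE 0.22, adjusted p = 0.0489). The adjusted p was over 0.05 when any mouse but 309 was left out, up to 0.146 without mouse 311. Any reads of the human transgene that match mouse Agxt cannot be told apart from it.

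None of the 10 genes passed the test between the vectors, and the direction was split. In edgeR's quasi-likelihood test, adjusted by Benjamini-Hochberg over all genes tested, 0 of 10 had an adjusted p under 0.05, beside 4.35% of all genes tested (2.45% higher and 1.90% lower in AAV8-AGXT). Without adjustment, 4 of 10 had a p under 0.05, beside 26.2% of all genes tested: Hspd1, Hspa8 and Hspe1 with the higher and Hspa1a with the lower mean in AAV8-AGXT. In normalized CPM there was no overlap between the groups for 2 of 10 genes, Hspd1 and Hspa8, beside 16.6% of all genes tested. The TMM scaling factors behind these values themselves separated the groups, at 1.02 to 1.14 in AAV8-GFP and 0.83 to 1.00 in AAV8-AGXT mice. Scaled by library size alone, both genes overlapped: mouse 315 lay above mouse 308 for Hspd1, and mouse 311 above mouse 319 for Hspa8. Every statement of overlap between the groups refers to normalized CPM. DESeq2's Wald test called 1 of 10, Hspd1, beside 14.0% of all genes. The voomWithQualityWeights method of limma called the same gene, beside 9.25% of all genes. The mean was higher in AAV8-AGXT for 7 genes and lower for 3, and the median log2 fold change of the 10 was 0.18 against 0.02 over all genes tested. In bulk liver RNA, fewer cells of a type and less RNA per cell cannot be told apart.

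**Figure D1:**
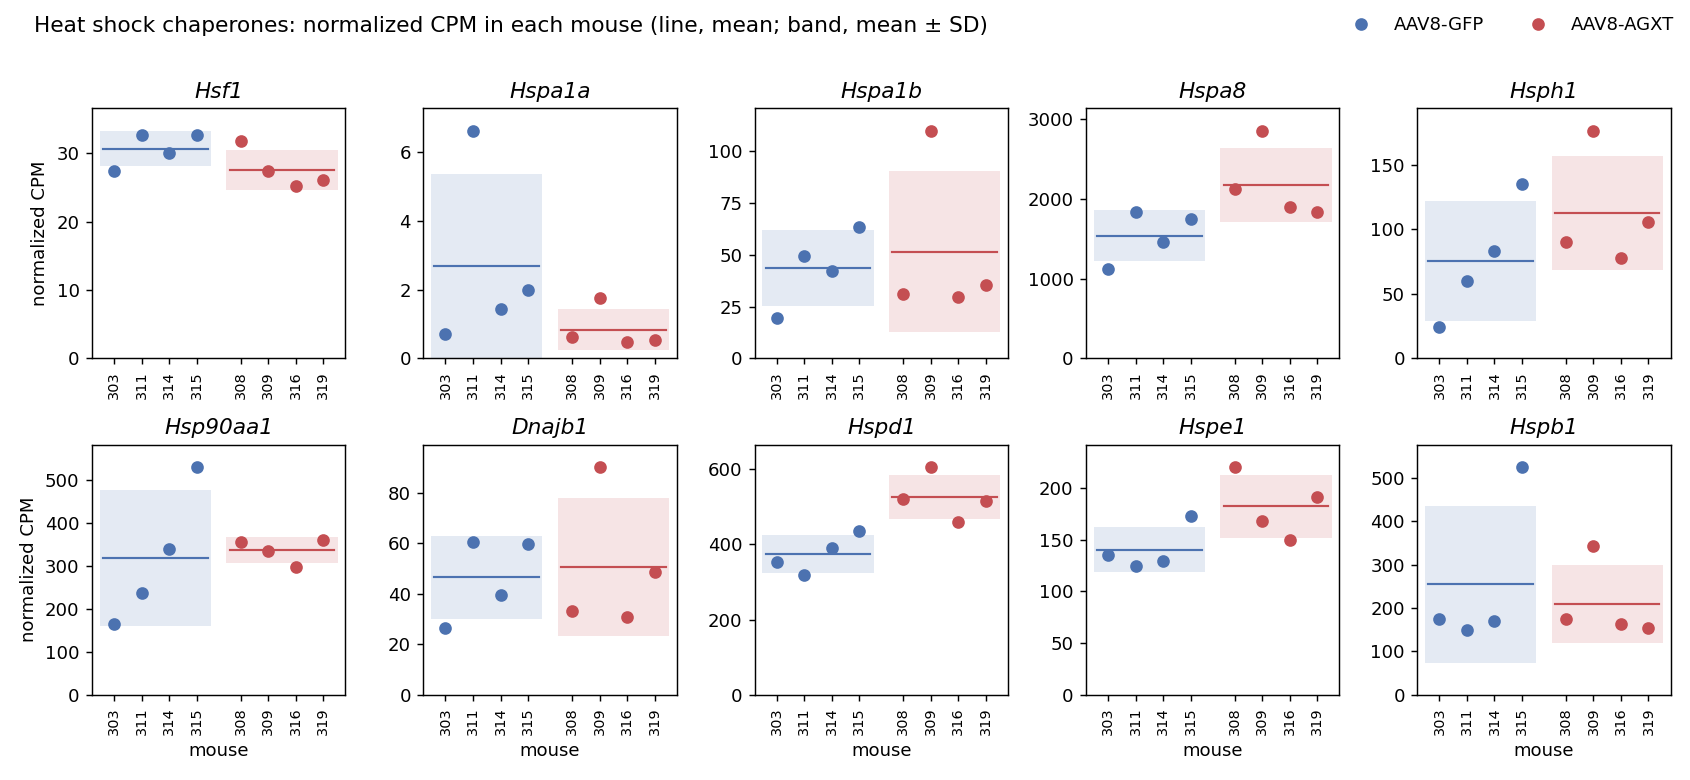
Normalized CPM of the 10 heat shock chaperones in each of the 8 mice, each panel with its own linear axis from 0; points are mice, lines are group means and bands are mean ± SD (n = 4). Hspd1 and Hspa8 had no overlap between the groups in this scaling. Mouse 303 was the lowest AAV8-GFP mouse in 7 panels, and mouse 309 was the highest AAV8-AGXT mouse in 7 panels.

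Hsf1, the factor that switches on the others, was evenly expressed within each group, and its normalized CPM overlapped between the vectors. It lies at chr15:76477422-76501913 (GRCm38) on the plus strand. AAV8-GFP mice 303, 311, 314 and 315 had 27.4, 32.7, 30.03 and 32.8 CPM, and AAV8-AGXT mice 308, 309, 316 and 319 had 31.8, 27.5, 25.2 and 26.0 CPM. Mouse 308 lay within the upper AAV8-GFP range, and mice 316 and 319 lay below every AAV8-GFP mouse. The log2 fold change was -0.15 (SE 0.11, 95% interval -0.40 to 0.09, adjusted p = 0.403). Scaling by total counts, which gave a median of -0.22 over all genes tested, gave -0.40 for Hsf1 (adjusted p = 0.0512 in edgeR). Its coefficient of variation was 8.36% in AAV8-GFP and 10.6% in AAV8-AGXT mice. HSF1 is controlled mainly through its protein, which these libraries do not measure.

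Among the heat shock chaperones, Hspd1 of the mitochondrial chaperonin pair stood nearest to a difference. Its partner Hspe1 did not stand apart, since its adjusted p in edgeR (0.157) was close to those of Hspa8 (0.157) and Hspa1a (0.160). Hspd1 encodes HSP60, the barrel in which proteins of the mitochondrial matrix fold, and lies at chr1:55077835-55088243 on the minus strand. Hspd1 was at 353, 320, 392 and 437 CPM in the AAV8-GFP mice and at 522, 605, 461 and 516 CPM in the AAV8-AGXT mice. The lowest AAV8-AGXT mouse, 316, was above the highest AAV8-GFP mouse, 315. The log2 fold change was 0.49 (SE 0.14, 95% interval 0.17 to 0.80), or 1.40-fold, with an unadjusted p of 0.00611 and an adjusted p of 0.0738 in edgeR. DESeq2 gave an adjusted p of 0.00897 and voomWithQualityWeights one of 0.0450, and over all 18 alternatives the adjusted p ran from 0.00897 to 0.223. Leaving out 1 mouse at a time gave log2 fold changes of 0.39 to 0.57. Scaling by total counts, which lowers the median log2 fold change of all genes tested to -0.22, gave 0.26 for Hspd1.

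Hspe1 encodes HSP10, the lid of the HSP60 barrel, and lies head to head with Hspd1 at chr1:55088132-55091307 on the plus strand. The genes share 112 exon bases on opposite strands, and since the strand setting of the counting is not given in the sources used here, pairs in that overlap cannot be assigned with certainty. Hspe1 was at 135, 124, 130 and 173 CPM in AAV8-GFP and at 220, 168, 150 and 191 CPM in AAV8-AGXT mice. AAV8-GFP mouse 315 was above AAV8-AGXT mice 309 and 316, so the groups overlapped, while the other 3 AAV8-GFP mice were below all 4 AAV8-AGXT mice. For Hspe1 the log2 fold change was 0.38 (SE 0.15, 95% interval 0.04 to 0.72, adjusted p = 0.157), and it was 0.13 with scaling by total counts. The ratio of Hspd1 to Hspe1 CPM was 2.53 to 3.02 in AAV8-GFP and 2.37 to 3.61 in AAV8-AGXT mice, with mouse 309 highest and mouse 308 lowest.

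Of the HSP70 proteins, Hspa8 and the inducible Hspa1a and Hspa1b had unlike patterns. Hspa8 encodes HSC70, the constitutive cytosolic HSP70 that also uncoats clathrin vesicles and serves chaperone-mediated autophagy, at chr9:40800984-40810087 on the plus strand. It was at 1115, 1838, 1461 and 1742 CPM in AAV8-GFP and at 2123, 2849, 1894 and 1839 CPM in AAV8-AGXT mice. In normalized CPM the groups did not overlap, but only just, since AAV8-GFP mouse 311 at 1838 and AAV8-AGXT mouse 319 at 1839 CPM were almost equal. The log2 fold change was 0.50 (SE 0.20, 95% interval 0.05 to 0.95, adjusted p = 0.157), and it was 0.32 without mouse 309 and 0.58 without mouse 311. With total counts as the scaling, it fell to 0.27 (adjusted p = 0.390 in edgeR). Of the 76-base words of the Hspa8 transcript, 40.8% occur in transcripts of 13 other genes, most of them in the pseudogene Gm15459. The small nucleolar RNA genes Snord14c, Snord14d and Snord14e share 262 bases with annotated exons of Hspa8, counted over all its transcripts.

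Hspa1b, a stress-induced HSP70 gene without introns at chr17:34956436-34959238 on the minus strand, varied widely in both groups. Its values were 19.3, 49.3, 42.2 and 63.2 CPM in AAV8-GFP and 31.0, 110, 29.8 and 35.4 CPM in AAV8-AGXT mice. Mouse 309 was above all others, and the remaining 3 AAV8-AGXT mice lay within the AAV8-GFP range. For Hspa1b the log2 fold change was 0.24 (SE 0.47, 95% interval -0.80 to 1.28, adjusted p = 0.781), and without mouse 309 it was -0.45 (adjusted p = 0.392). The sign also turned without mouse 303 (-0.0027) and with voomWithQualityWeights (-0.081), so no direction can be given for Hspa1b.

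Hspa1a, its neighbour at chr17:34969190-34972156 on the minus strand, was counted at a far lower level. Its values were 0.703, 6.61, 1.43 and 1.98 CPM in AAV8-GFP and 0.621, 1.74, 0.462 and 0.519 CPM in AAV8-AGXT mice, from 18, 216, 31 and 45 counts and from 9, 29, 9 and 11 counts. Mouse 311 was far above the others, and the groups overlapped only in that mouse 309 lay above mice 303 and 314. On the log2 scale the fold change was -1.71 (SE 0.71, 95% interval -3.29 to -0.14, adjusted p = 0.160), and without mouse 311 it was -0.73 (adjusted p = 0.515).

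Hspa1a and Hspa1b encode nearly the same protein, and 52.5% of the 76-base words of the Hspa1a transcript also occur in Hspa1b. Read pairs that align to both genes are not counted on either one, so the level of each is uncertain and the pair is best read as a sum. Hspa1a made up 3.52%, 11.8%, 3.28% and 3.04% of the summed counts of the pair in AAV8-GFP mice (Wilson 95% intervals from 2.24% to 5.49% in mouse 303 and from 10.4% to 13.4% in mouse 311). It made up 1.97%, 1.56%, 1.53% and 1.45% in AAV8-AGXT mice, with the highest upper limit at 3.69% in mouse 308. These intervals cover counting error only. The share was lower in all 4 AAV8-AGXT than in all 4 AAV8-GFP mice, and mouse 311 stood apart from the other AAV8-GFP mice. Hspa1a also shares 564 exon bases with Gm20481 on the opposite strand, which had 0 counts in every mouse. With both genes summed in 1 fit, the log2 fold change was 0.18 (adjusted p = 0.843).

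Hsph1 and Dnajb1 encode helpers of HSP70. Hsph1 encodes HSP105, a nucleotide exchange factor for HSP70, and lies at chr5:149614287-149636376 on the minus strand. It was at 24.1, 59.8, 82.8 and 135 CPM in AAV8-GFP and at 90.4, 176, 77.5 and 106 CPM in AAV8-AGXT mice. Mouse 303 was at the bottom of the 8 mice and mouse 309 at the top, and AAV8-GFP mice 314 and 315 lay inside the AAV8-AGXT range. For Hsph1 the log2 fold change was 0.58 (SE 0.44, 95% interval -0.41 to 1.56, adjusted p = 0.436), and it ran from 0.26 without mouse 309 to 1.02 without mouse 315. Within AAV8-GFP the highest mouse had 5.60 times the level of the lowest.

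Dnajb1 encodes HSP40, the J-domain protein that delivers unfolded clients to HSP70, at chr8:83608193-83612653 on the plus strand. Its values were 26.6, 60.4, 39.5 and 59.9 CPM in AAV8-GFP and 33.1, 90.1, 30.9 and 48.6 CPM in AAV8-AGXT mice. As for Hspa1b, mouse 309 was highest and the other AAV8-AGXT mice lay within the AAV8-GFP range. For Dnajb1 the log2 fold change was 0.12 (SE 0.36, 95% interval -0.69 to 0.93, adjusted p = 0.865), and it was -0.33 without mouse 309 and -0.072 without mouse 303. It was also below 0 with voomWithQualityWeights (-0.15) and with total counts (-0.098). No word of 76 bases in the transcripts of Hsf1, Hsph1 or Dnajb1 was shared with another gene.

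Hsp90aa1 encodes the stress-responsive cytosolic HSP90α, which matures kinases and steroid receptors, at chr12:110690605-110702728 on the minus strand. It was at 164, 236, 339 and 528 CPM in AAV8-GFP and at 356, 333, 296 and 360 CPM in AAV8-AGXT mice. The AAV8-AGXT mice lay close together, inside a 3.22-fold range of the AAV8-GFP mice. For Hsp90aa1 the log2 fold change was 0.09 (SE 0.30, 95% interval -0.58 to 0.75, adjusted p = 0.885). It was -0.14 with scaling by total counts, -0.13 without mouse 303 and -0.045 without mouse 311. The coefficient of variation was 49.9% in AAV8-GFP and 8.78% in AAV8-AGXT mice, and this difference in spread was not tested. Pseudogenes such as Gm12346 hold much of its sequence, since 52.9% of its 76-base words occur in other transcripts.

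Hspb1 encodes HSP25, the mouse small heat shock protein that binds actin and unfolded proteins, at chr5:135887919-135889563 on the plus strand. It was at 174, 149, 170 and 524 CPM in AAV8-GFP and at 173, 344, 163 and 155 CPM in AAV8-AGXT mice. Each group had 3 mice between 149 and 174 CPM and 1 mouse far above them, mouse 315 and mouse 309. For Hspb1 the log2 fold change was -0.29 (SE 0.43, 95% interval -1.24 to 0.66, adjusted p = 0.709), and it was 0.35 without mouse 315 and -0.65 without mouse 309. The pseudogene Hsp25-ps1 holds 47.1% of the 76-base words of Hspb1.

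**Figure D2:**
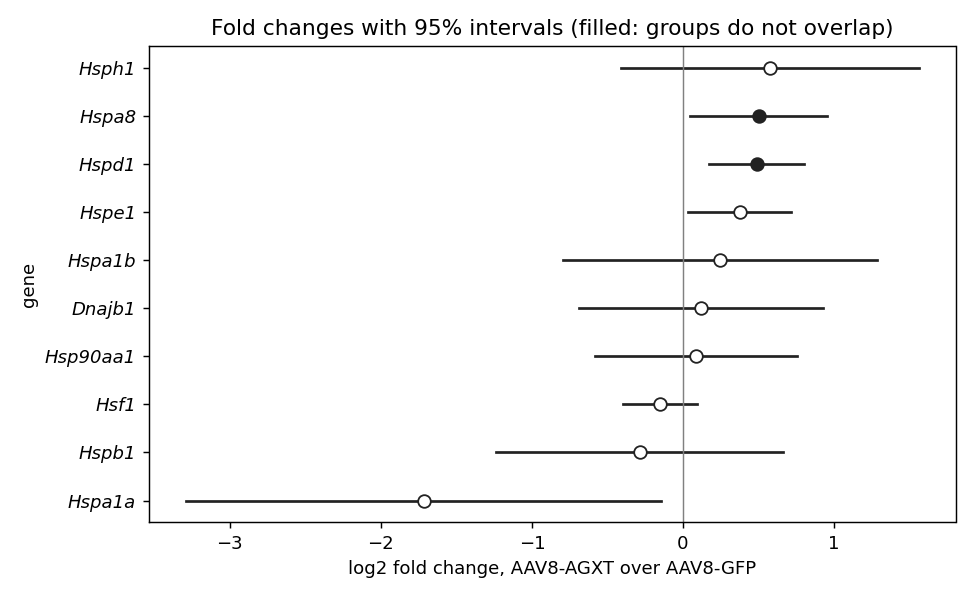
Log2 fold change of each heat shock chaperone, AAV8-AGXT over AAV8-GFP, with the 95% interval of the edgeR fit. Filled points are genes whose groups did not overlap in normalized CPM. The intervals of Hspd1, Hspa8, Hspe1 and Hspa1a exclude 0, but the smallest adjusted p of the 10 was 0.0738.

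Per kilobase of exon, the members ranked the same way in both groups at the top and the bottom. Hspa8 was highest, with a mean level of 358 CPM per kb in AAV8-GFP and 506 CPM per kb in AAV8-AGXT mice. Hspb1 followed at 247 and 202 CPM per kb, Hspd1 at 142 and 199, Hspe1 at 95.2 and 124, and Hsp90aa1 at 80.6 and 85.5. The neighbours Hspb1 and Hspd1 cannot be ordered, since the SD of Hspb1 was 175 CPM per kb in AAV8-GFP and 87.6 CPM per kb in AAV8-AGXT mice. The stress-inducible Hspa1b (15.5 and 18.4 CPM per kb), Dnajb1 (14.5 and 15.8) and Hsph1 (10.4 and 15.5) formed a lower tier whose order lay within their spread. Hsf1 was at 4.33 and 3.89 CPM per kb, and Hspa1a was lowest at 0.904 and 0.282 CPM per kb. Pairs that align to several genes are not counted, and the share of 76-base words found in other genes was 61.5% for Hspa1a, 55.6% for Hspa1b, 52.9% for Hsp90aa1, 47.1% for Hspb1, 40.8% for Hspa8 and 33.3% for Hspd1 but 0% for Hsph1, Dnajb1 and Hsf1, so levels compared between these genes are uncertain. Hspa8 ranked 59 from the top among all tested genes by mean CPM, without length, in the AAV8-GFP mice.

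The spread among mice of 1 group was wide for most of the inducible genes, and single mice carried much of it. The coefficient of variation in AAV8-GFP and AAV8-AGXT mice was 42.2% and 75.6% for Hspa1b, 61.6% and 39.2% for Hsph1, 35.5% and 54.2% for Dnajb1, 70.9% and 43.3% for Hspb1 and 99.6% and 72.7% for Hspa1a. For Hsp90aa1 it was 49.9% in AAV8-GFP but 8.78% in AAV8-AGXT mice, below Hsf1 at 10.6%. For tested genes of like level, within a factor of 2 of the mean, the median coefficient of variation lay between 10.4% and 11.7% in AAV8-GFP and between 12.4% and 15.8% in AAV8-AGXT mice for Hspa1b, Hsph1, Dnajb1, Hspb1 and Hsp90aa1, and it was 23.6% and 38.4% for the scarce Hspa1a. Without mouse 309 the AAV8-AGXT value fell to 9.20% for Hspa1b, 15.5% for Hsph1, 25.8% for Dnajb1, 5.71% for Hspb1 and 15.1% for Hspa1a. Without mouse 315 the AAV8-GFP value fell to 8.23% for Hspb1, without mouse 311 to 46.8% for Hspa1a, and without mouse 303 to 20.7% for Hspa1b, 41.6% for Hsph1 and 22.4% for Dnajb1. In AAV8-GFP mice Hsph1, Dnajb1, Hspa1b and Hsp90aa1 (35.6% without mouse 315) stayed above the medians of their like-level genes without any 1 mouse. Hspd1, at 13.4% and 11.3%, and Hspe1, at 15.7% and 16.6%, were near those medians, 11.9% and 16.2% for Hspd1 and 10.9% and 14.2% for Hspe1. Hspa8 was at 21.1% and 21.4%, and at 11.7% without mouse 303 and 7.73% without mouse 309. The values without 1 mouse were added after the data were seen. These are descriptions with no test.

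The same mice were high or low for many of these genes. In AAV8-GFP, mouse 303 was lowest for 7 genes (Hsf1, Hspa1a, Hspa1b, Hspa8, Hsph1, Hsp90aa1 and Dnajb1) and mouse 315 was highest for 7. In AAV8-AGXT, mouse 309 was highest for 7 genes and mouse 316 was lowest for 8. Relative to the group mean of log2 CPM, mouse 303 was at -1.05 for Hspa1b, -1.39 for Hsph1 and -0.73 for Dnajb1, but at -0.08 for Hspd1 and -0.05 for Hspe1. Mouse 309 was at 1.33 for Hspa1b, 0.97 for Dnajb1 and 0.72 for Hsph1, but at -0.01 for Hsp90aa1 and -0.11 for Hspe1. In both animals the deviations of Hspd1 and Hspe1 were smaller in size than those of Hspa1b, Hsph1 and Dnajb1.

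**Figure D3:**
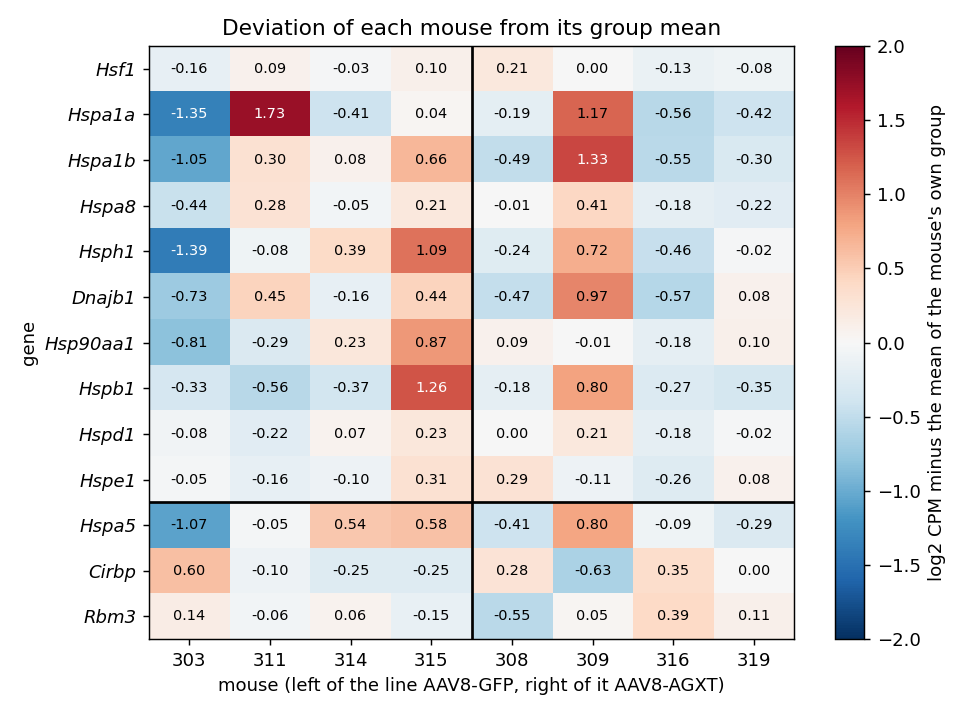
Log2 CPM of each gene in each mouse minus the mean of the mouse's own group, for the 10 heat shock chaperones (above the line) and Hspa5, Cirbp and Rbm3 (below it); red is above and blue below the group mean. Mouse 303 was low and mouse 309 high for Hspa1b, Hsph1, Dnajb1 and Hspa5, and Cirbp had the opposite signs in these mice.

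Across the 8 mice, with each group centred on its own mean, 44 of the 45 pairs of members had a positive Pearson r, with a median of 0.54. The range ran from -0.16 for Hspa1a with Hspe1 to 0.95 for Hspa1b with Dnajb1 (Spearman rho 0.95, and r of 0.88 without mice 303 and 309). For the 21 pairs among the 7 cytosolic chaperones, r ran from 0.17 for Hspa1a with Hsp90aa1 to 0.95, with a median of 0.71. For the 16 pairs of Hspd1 or Hspe1 with another member the median was 0.44, with a range from -0.16 to 0.84. Hsph1 with Hsp90aa1 had an r of 0.88 that fell to 0.41 without mice 303 and 315, and Hsp90aa1 with Dnajb1 went from 0.44 to -0.18 without the same mice. Hspd1 with Hspe1, which lie head to head, had an r of 0.53 (rho 0.60), below that of Hspd1 with Hspb1 (0.84) or with Hsph1 (0.73). Values of 1 mouse share a library and its scaling, 8 mice are few, and these r values are descriptions.

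A common profile was formed as the mean of the standardised, group-centred log2 CPM of Hspa1a, Hspa1b, Hspa8, Hsph1, Hsp90aa1 and Dnajb1. It ran from -1.51 in mouse 303 to 0.94 in mouse 315 among AAV8-GFP mice and from -0.64 in mouse 316 to 1.16 in mouse 309 among AAV8-AGXT mice. Of the 15238 other tested genes, the 10 most like it over 8 mice were Alg12, Gcc1, Abcb11, Srpk2, Tfe3, Syvn1, Ulbp1, Gm16023, Mgme1 and Zkscan7, with r from 0.98 for Alg12 to 0.95 for Zkscan7. Ulbp1 and Gm16023 were scarce, with means of 1.02 and 1.25 CPM in AAV8-GFP and 0.614 and 0.960 CPM in AAV8-AGXT mice. Alg12 encodes a mannosyltransferase of N-glycan assembly in the endoplasmic reticulum, Abcb11 the bile salt export pump and Syvn1 the ubiquitin ligase HRD1 of endoplasmic reticulum quality control. Syvn1 was at 108, 261, 321 and 440 CPM in AAV8-GFP and at 158, 314, 145 and 145 CPM in AAV8-AGXT mice, which follows the order of mice 303 and 309 seen for Hsph1. These genes were ranked over all genes on 8 mice, and no test was made of their likeness.

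The chaperones of the endoplasmic reticulum, which serve secreted proteins and answer to the unfolded protein response, shared the extreme mice, 303 and 309, with the profile, though not the order of the others. All 17 genes of that list had a positive r with the profile, with a median of 0.84, beside 51.7% positive and a median of 0.02 over all other tested genes. Hyou1, the endoplasmic reticulum relative of HSP110 and named after its values were seen, had an r of 0.93 (rho 0.90), ranking 18 of 15238. Without mice 303 and 309, r was positive for 16 of 17 with a median of 0.60, from -0.052 for Dnajc10 to 0.77 for Hyou1. Hspa5, which encodes BiP, was at 431, 879, 1320 and 1357 CPM in AAV8-GFP and at 664, 1535, 829 and 722 CPM in AAV8-AGXT mice. None of the 17 passed the test between the vectors, and the log2 fold change of Hspa5 was -0.09 (SE 0.37, 95% interval -0.92 to 0.74, adjusted p = 0.906). The HSP90 partners had a median r of 0.61 with 13 of 17 positive, and the mitochondrial chaperones had a median r of -0.31 with 6 of 14 positive.

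Cirbp, the cold-inducible RNA-binding protein gene whose mRNA is known to rise as temperature falls, ran opposite to the profile. Cirbp was at 64.2, 39.6, 35.5 and 35.5 CPM in AAV8-GFP and at 52.2, 27.9, 55.0 and 43.1 CPM in AAV8-AGXT mice, highest in mouse 303 and lowest in mouse 309. Its r with the profile was -0.93 (rho -0.93, and -0.81 without mice 303 and 309), the 20th lowest of 15238 genes. Rbm3, the other cold-inducible gene, had an r of -0.26 and was at 49.2, 42.9, 46.6 and 40.3 CPM in AAV8-GFP and at 34.9, 52.7, 67.0 and 55.0 CPM in AAV8-AGXT mice. Neither passed the test between the vectors (adjusted p = 0.960 for Cirbp and 0.427 for Rbm3). The labels give no body temperature.

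Technical measures and markers were set beside the profile, each centred within its group over the 8 mice. Its r was -0.08 with counts on genes, 0.22 with the share of pairs on genes, -0.52 with the share not aligned and -0.18 with the share of mitochondrial mRNA. It was -0.08 with the summed hepatocyte markers, 0.17 with macrophage and monocyte markers, 0.21 with stellate cell and fibroblast markers, -0.04 with cholangiocyte markers, -0.36 with endothelial markers and 0.28 with lymphocyte and neutrophil markers. It was 0.54 with the summed immediate early genes, which answer within minutes to handling and injury and were highest in mouse 309 at 3042 CPM against 819 to 1445 CPM in the other 7 mice. It was 0.45 with the summed clock genes. The part of any of these in the chaperone levels was not tested.

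The other genes of the chaperone network were taken from 9 lists of 113 genes, of which 105 were tested. In the same test, 4 passed (3.81%, beside 4.35% of all genes tested), all higher in AAV8-AGXT: Fkbp5, Bag4, Tomm70a and Dnaja3. Fkbp5 encodes a co-chaperone of HSP90 in steroid receptor complexes and is a known glucocorticoid target. Fkbp5 was at 20.2, 25.5, 35.4 and 25.8 CPM in AAV8-GFP and at 50.6, 80.9, 51.2 and 92.7 CPM in AAV8-AGXT mice, without overlap. Its log2 fold change was 1.37 (SE 0.23, adjusted p = 0.0283). Bag4, which encodes a nucleotide exchange factor of HSP70, was at 9.21 ± 0.732 and 15.6 ± 2.61 CPM (SD, n = 4 each) and rose by 0.76 on the log2 scale (SE 0.14, adjusted p = 0.0341). Tomm70a, the outer membrane receptor that takes preproteins from HSP70 and HSP90 into mitochondria, had a log2 fold change of 0.50 (SE 0.12, adjusted p = 0.0481). With 1 mouse left out at a time, the log2 fold changes stayed at 1.19 to 1.51 for Fkbp5, 0.67 to 0.85 for Bag4, 0.42 to 0.58 for Tomm70a and 0.38 to 0.47 for Dnaja3. The call was lost for all 4 without mouse 311 (adjusted p = 0.124, 0.127, 0.166 and 0.164, in that order), and also without mouse 314 or mouse 319. It was lost for Bag4, Tomm70a and Dnaja3 without mouse 303 (adjusted p = 0.0613, 0.0953 and 0.0931) or mouse 308 (0.0633, 0.0846 and 0.0803), and for Tomm70a and Dnaja3 without mouse 309 (0.0673 and 0.0631). Tomm70a lost it without mouse 315 (0.0639), and Dnaja3 without mouse 316 (0.0599).

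The list of mitochondrial chaperones and proteases held 14 tested genes, of which 1 passed and 12 had the higher mean in AAV8-AGXT, with a median log2 fold change of 0.16. Over all genes tested, 4.35% passed and 52.3% had a positive log2 fold change. Dnaja3, the J-domain partner of mitochondrial HSP70, was at 88.2, 85.6, 100 and 101 CPM in AAV8-GFP and at 124, 134, 117 and 132 CPM in AAV8-AGXT mice. It rose by 0.43 on the log2 scale (SE 0.10, adjusted p = 0.0461), with no overlap. Hspa9, mitochondrial HSP70 itself, was at 300, 326, 431 and 414 CPM and at 497, 504, 462 and 498 CPM, with a log2 fold change of 0.41 (SE 0.14, adjusted p = 0.109) and no overlap. Grpel1, its nucleotide exchange factor, had a log2 fold change of 0.40 (SE 0.13, adjusted p = 0.0972). The summed level of the 14 genes was 1341 to 1573 CPM in AAV8-GFP and 1586 to 1864 CPM in AAV8-AGXT mice (exact permutation p = 0.0286, the smallest that 4 against 4 mice allow). Sums were compared in this way for 20 lists, with no adjustment over them, and 4 lists reached that p: this one, the other small heat shock proteins, the clock genes and the hepatocyte markers. A sum follows its most abundant genes and does not describe each gene of a list. Hspb8 had 268 of 307 CPM in AAV8-GFP and 383 of 421 CPM in AAV8-AGXT for the small heat shock proteins (means). Hspa9 had 368 of 1456 and 490 of 1710 CPM here. The summed level of the 10 heat shock chaperones was 2039 to 3697 CPM in AAV8-GFP and 3127 to 4703 CPM in AAV8-AGXT mice, which overlap. The exact permutation p was 0.314 for the sum of the HSP90 partners and 0.771 for that of the endoplasmic reticulum list. The protease genes Lonp1 and Clpp, named like Grpel1 after their values were seen, had log2 fold changes of 0.14 and 0.21 (adjusted p = 0.449 and 0.468).

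**Figure D4:**
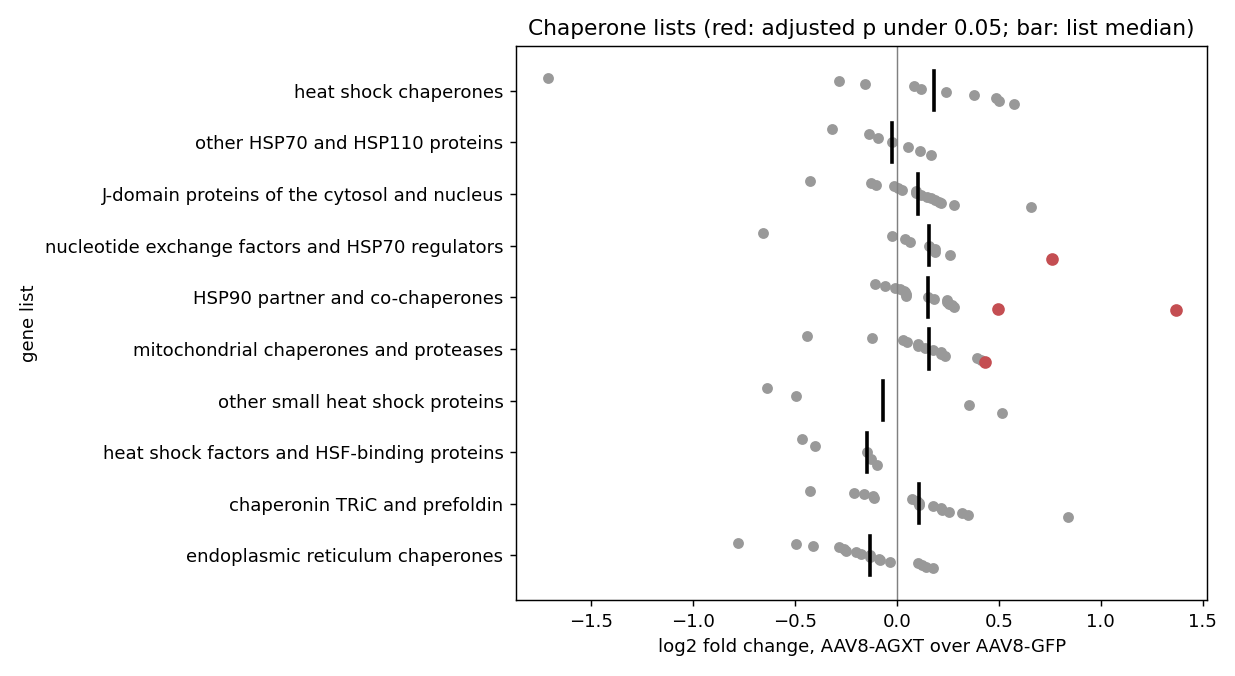
Log2 fold change, AAV8-AGXT over AAV8-GFP, of every tested gene in the heat shock chaperones and the 9 wider chaperone lists; red points had an adjusted p under 0.05 and black bars are list medians. The red points are Bag4, Tomm70a, Fkbp5 and Dnaja3, and the medians lie between -0.15 and 0.18.

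Of the remaining chaperone lists, only the HSP90 partners and the exchange factors and regulators held genes that passed. For the other HSP70 and HSP110 proteins, 0 of 7 passed with a median log2 fold change of -0.02, and Hspa4, the highest of them, was at 139 ± 7.67 and 156 ± 7.93 CPM (SD, n = 4 each). For cytosolic and nuclear J-domain proteins, 0 of 16 passed with a median of 0.11. Dnaja1, the highest of these and a partner of HSP70, was at 107, 164, 213 and 251 CPM in AAV8-GFP and at 284, 335, 228 and 314 CPM in AAV8-AGXT mice (log2 fold change 0.66, SE 0.24, adjusted p = 0.123). Dnajc9, a histone co-chaperone, had a log2 fold change of -0.43 (adjusted p = 0.0834). Among the HSP90 partners, Hsp90ab1, the constitutive cytosolic HSP90, had a log2 fold change of 0.28 (SE 0.23, 95% interval -0.24 to 0.80, adjusted p = 0.473). Bag6, the highest of the exchange factors and regulators, had a log2 fold change of 0.06 (adjusted p = 0.734), and that list had 1 of 9 past the test, Bag4, with a median of 0.16. The HSP90 partners had 2 of 17 past the test, with a median of 0.15.

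Of the other small heat shock proteins, 4 of 9 were tested and 0 passed, with a median of -0.07, and Cryaa and Hspb3 had no count in any mouse. Hspb8, a partner of BAG3 in the disposal of misfolded proteins, did not overlap between the groups, at 200, 268, 283 and 323 CPM against 346, 389, 337 and 462 CPM (log2 fold change 0.51, SE 0.17, adjusted p = 0.0968). Of the heat shock factors and HSF-binding proteins, 0 of 5 passed with a median of -0.15, and Hsbp1, a negative regulator of HSF1, was at 102 ± 1.92 and 92.0 ± 6.02 CPM (adjusted p = 0.320). Hsf2bp, of the same list, had a log2 fold change of -0.40 (adjusted p = 0.201). Of the chaperonin TRiC and prefoldin genes, which fold actin and tubulin, 0 of 16 passed with a median of 0.11, and Cct8, the highest, had a log2 fold change of 0.10 (adjusted p = 0.583). Pfdn4, a prefoldin subunit, had one of -0.43 (adjusted p = 0.1098) without overlap. For the endoplasmic reticulum list the median was -0.13, and Dnajc10, a disulfide reductase there, had a log2 fold change of -0.28 (adjusted p = 0.176).

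Some genes of other systems passed the same test, but none of them held without mouse 311 or mouse 319. Over all genes tested, 4.35% passed and 16.6% had no overlap between the groups. Of 17 clock genes, 5 passed, all higher in AAV8-AGXT: Bhlhe41, Hlf, Ciart, Tef and Cry2. Npas2, Arntl and Cry1 were lower without overlap but did not pass (log2 fold changes -1.46, -0.83 and -0.56, adjusted p = 0.0546, 0.0843 and 0.0814), and they were named after their values were seen. The summed clock gene level was 381 to 650 CPM in AAV8-GFP and 729 to 897 CPM in AAV8-AGXT mice. Of 10 hepatocyte markers, 2 passed, Cyp2e1 and Cps1, both higher, with summed marker levels of 62648 to 72466 and 79144 to 112414 CPM. Of the markers of other cells, 0 of 13 for macrophages and monocytes, 1 of 10 for stellate cells and fibroblasts (Acta2, lower), 0 of 6 for cholangiocytes, 0 of 7 for endothelium and 0 of 10 for lymphocytes and neutrophils passed. Their median log2 fold changes were -0.53, -0.83, -1.24, 0.22 and -0.74, and no tested marker was at 0 in every mouse. Summed levels in AAV8-GFP and AAV8-AGXT mice were 543 to 943 and 239 to 842 CPM for macrophages and monocytes and 574 to 1020 and 262 to 659 CPM for stellate cells and fibroblasts. They were 226 to 679 and 75.3 to 276 CPM for cholangiocytes, 135 to 199.7 and 139 to 251 CPM for endothelium, and 36.9 to 60.2 and 14.7 to 39.3 CPM for lymphocytes and neutrophils, so each of these ranges overlapped. Without mouse 311 or mouse 319 none of these 8 clock, hepatocyte and stellate genes stayed past the threshold (adjusted p from 0.0935 to 0.153 and from 0.0531 to 0.119). Without mouse 314 only Bhlhe41 did (0.0440). Ciart, Tef, Cry2 and Cps1 were also lost without mouse 303 (0.0622, 0.0622, 0.0984 and 0.0529), Tef and Cry2 without mouse 308 (0.0782 and 0.0834) or mouse 316 (0.0640 and 0.0807), and Acta2 was lost without any 1 mouse (adjusted p from 0.0575 to 0.116). None of 17 immediate early genes passed, with a median of -0.07, and among them Ier3 had a log2 fold change of -1.13 (adjusted p = 0.0566) and Zfp36 one of 0.44 (adjusted p = 0.469). None of 13 mitochondrially encoded mRNAs passed, with a median of 0.20, and mt-Co1 and mt-Atp8 had adjusted p values of 0.499 and 0.461. The part of cell makeup and of the time of collection in the levels of Hspd1, Hspa8 and the other members was not tested.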

How the data were processed

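Liver RNA of 8 mice (4 AAV8-GFP and 4 AAV8-AGXT) was sequenced as paired-end mRNA libraries, and mice were grouped by the treatment in the labels. The deposited values are raw counts of read pairs per gene, which the authors made with Trimmomatic 0.35, HISAT2 and HTSeq on GRCm38. The strand setting of the counting is not given in the sources used here. HTSeq's tallies of pairs on no gene were kept out of library sizes. No sample was left out.

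The whole table was fitted once in edgeR 4.0.16 (R 4.3.3): genes kept by filterByExpr, TMM factors, quasi-likelihood test, Benjamini-Hochberg over 15248 genes, call at adjusted p under 0.05. Per-mouse values are TMM-normalized CPM without a prior count. Log2 CPM for deviations used a prior count of 2. Single summed values were compared by two-sided exact permutation over 70 arrangements of the mice. Libraries held 17095433 to 28780140 counts, and the common biological coefficient of variation was 23.3%. On simulated counts over 15046 genes for this comparison, 53 of 97 genes changed by 1 on the log2 scale and 88 of 95 changed by 2 were called, with 7 of 14854 unchanged genes called.

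The members and lists were chosen with earlier results of these data known. All 10 members and Agxt are named. Of each other list the genes past the threshold were named (up to 6), or else the one with the smallest p, plus the one with the highest mean. For cell type markers the genes past the threshold were named. Likeness named 10 genes. Exons and coordinates came from GENCODE M21 and promoter sequences from RefSeq (GRCm38.p6). Promoter windows of Hsf1, Hspa8 and Hsp90aa1 were not used here. Alternatives were DESeq2 1.42.0, limma 3.58.1 (voom, voomWithQualityWeights), robust estimation, 3 other scalings, 2 other filters, each mouse left out, and Hspa1a and Hspa1b summed.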

Additional observations from a re-analysis of the deposited data

Results flagged for a closer look

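In each group of 4 mice the highest or lowest value was compared with the others: a value was taken to stand apart where its gap to the nearest mouse exceeded Dixon's 95% critical value, as a share of the group's range. Of 26 groups of 4 mice examined, 4 had such a mouse, and chance marks about 1 in 20 groups. The groups reuse the same mice and are not independent, so the count of marks cannot be set against that rate. Mouse 309 of AAV8-AGXT was far above its group for Hspa1a (1.74 CPM, gap 0.876 of the range), Hspa1b (110 CPM, 0.930) and Hspb1 (344 CPM, 0.901). Mouse 315 of AAV8-GFP was far above its group for Hspb1 (524 CPM, 0.933). Hspa1a of mouse 309 rests on 29 counts.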

How the results depend on the processing

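Over 18 alternatives (16 for Hspa1a), 165 member values kept their direction and their side of the threshold, 11 changed sign and 2 gained a call, both for Hspd1 (DESeq2 and voomWithQualityWeights, each calling 1 of the 10 members; leaving out 1 mouse at a time gave 0 to 0). The sign changes were Hspa1b with voomWithQualityWeights (-0.081) and over left-out mice (-0.45 without 309 to 0.48), Hsp90aa1 with total counts (-0.14) and over left-out mice (-0.13 to 0.45), Dnajb1 with voomWithQualityWeights (-0.15), total counts (-0.10) and left-out mice (-0.33 to 0.30), and Hspb1 over left-out mice (-0.65 to 0.35). Higher and lower genes were 374 and 290, against 1077 and 1054 with DESeq2, 804 and 606 with voomWithQualityWeights and 144 and 857 with total counts, which shift the median of all genes to -0.22. Leaving out 1 mouse gave 2 to 379 higher and 0 to 325 lower genes: 2 and 0 without mouse 311, 11 and 4 without 314, 12 and 2 without 319, 86 and 91 without 308, 114 and 79 without 303, and 226 and 185 without 316. The 4 genes called in the wider chaperone lists became 10 with DESeq2, 2 with upper-quartile factors, 2 without a filter, 2 with at least 10 counts in every mouse, and 0 to 4 with 1 mouse left out (0 without 311, 314 or 319, 1 without 303 or 308 and 2 without 309). The cause was not tested. No paired analysis was possible because the groups share no replicate numbers. Depth limits Hspa1a, at 9 to 216 counts.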
